A study of Mus musculus with 8 samples.

Results

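The 100 protein-coding mouse genes whose symbol begins with Cyp and a digit, the cytochrome P450 genes of the GENCODE M21 annotation, were examined for binding of the glucocorticoid receptor (GR) in mouse liver. GR binding had been mapped by chromatin immunoprecipitation and sequencing (ChIP-seq) in 3 groups of C57BL/6J mice, with 2 libraries each. Control mice (ctrl.) ate regular chow and are labelled as night-fed. By the study's methods food was limited to the night in the final week and free before it. Calorically restricted mice (cal. res.) received less of the same chow, in rations lowered stepwise over weeks and then kept at the lowest step, and CORT mice were night-fed and supplemented with corticosterone, the main glucocorticoid of rodents. By the study's methods the animals were adult males, corticosterone was injected daily for a week, and livers were taken when the lights went off. The labels give no separation of liver cell types, so that binding in hepatocytes and in other liver cells cannot be told apart. A further list held regions bound by FOXO1, the forkhead factor that insulin signalling keeps out of the nucleus, in cal. res. liver only. It was called on 2 libraries merged beforehand and has no replicate spread.

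Cytochrome P450 enzymes are heme proteins that insert oxygen into lipophilic substrates. In the liver they carry out the rate-limiting steps of bile acid synthesis, hydroxylate fatty acids, steroids and vitamins, and clear drugs and dietary toxins. Many are read out by nuclear receptors, among them CAR at Cyp2b10, PXR at Cyp3a11, PPARα at Cyp4a10 and Cyp4a14, and the aryl hydrocarbon receptor, which is no nuclear receptor, at Cyp1a1. GR is itself a nuclear receptor. With hormone bound it enters the nucleus and binds a palindrome of hexamers called the glucocorticoid response element (GRE), or binds beside other liver factors such as C/EBP, HNF4, STAT and forkhead proteins.

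Peak intervals that overlapped, in 1 library or between them, were merged over all 6 GR libraries and gave 51431 sites across the genome. Of these, 548 were centred within 50 kb of a Cyp gene start and form the set described here. Neighbouring Cyp genes share sites, so genes whose 50 kb windows overlapped were joined into 55 clusters and each site was counted once: 34 clusters held 1 gene, and 21 held the other 66 genes, at most 7 in 1 cluster. The nearest protein-coding start was that of a Cyp gene at 405 sites (73.9%), and another gene lay nearer to the rest. A group was said to hold a site where neither of its 2 libraries lacked a peak.

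The sequences below are from 6 sites that the results turn on. Each is 200 bases of mm10, plus strand, around the summit of the peak. Capitals mark every match, on either strand, to 6 motifs that were searched as plain letters: the GRE palindrome (GNACA and its reverse complement TGTNC with any 3 bases between them), the GR hexamer AGAACA (which can lie inside a GRE), the forkhead (FOX) motif TGTTTAC, the HNF4 motif CAAAGTCCA, the C/EBP motif TTGCNNAA and the STAT motif TTCNNNGAA. Matches may overlap each other. The Cyp17a1 region held the highest-ranked peak, Cyp27a1 and Cyp4a10 the largest positive differences in rank from ctrl., Cyp39a1 a difference between cal. res. and CORT, and Cyp2b10 and Cyp2c70 peaks with none in ctrl.
Cyp2b10, 13.2 kb upstream, intergenic, chr7:25884337-25884536: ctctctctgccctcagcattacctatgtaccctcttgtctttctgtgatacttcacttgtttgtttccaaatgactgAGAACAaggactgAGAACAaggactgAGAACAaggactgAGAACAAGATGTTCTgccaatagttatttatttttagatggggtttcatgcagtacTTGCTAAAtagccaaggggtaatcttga
Cyp2c70, 3.5 kb upstream, intergenic, chr19:40190774-40190973: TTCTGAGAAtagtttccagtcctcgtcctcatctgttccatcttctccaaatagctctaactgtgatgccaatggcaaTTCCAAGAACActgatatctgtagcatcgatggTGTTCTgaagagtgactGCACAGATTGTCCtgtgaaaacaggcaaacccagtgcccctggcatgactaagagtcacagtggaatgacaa
Cyp17a1, 27.4 kb downstream, intron of Wbp1l, chr19:46646237-46646436: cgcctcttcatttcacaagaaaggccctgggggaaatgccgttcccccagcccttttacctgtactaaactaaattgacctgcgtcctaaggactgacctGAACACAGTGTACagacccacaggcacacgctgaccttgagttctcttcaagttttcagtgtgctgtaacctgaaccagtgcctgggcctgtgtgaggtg
Cyp27a1, 11.0 kb downstream, intron of Cyp27a1, chr1:74724151-74724350: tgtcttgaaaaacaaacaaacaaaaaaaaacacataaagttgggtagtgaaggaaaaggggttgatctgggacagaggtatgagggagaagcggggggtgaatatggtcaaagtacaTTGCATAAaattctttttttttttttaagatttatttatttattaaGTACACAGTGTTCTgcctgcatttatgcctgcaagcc
Cyp4a10, 0.7 kb downstream, intron of Cyp4a10, chr4:115519220-115519419: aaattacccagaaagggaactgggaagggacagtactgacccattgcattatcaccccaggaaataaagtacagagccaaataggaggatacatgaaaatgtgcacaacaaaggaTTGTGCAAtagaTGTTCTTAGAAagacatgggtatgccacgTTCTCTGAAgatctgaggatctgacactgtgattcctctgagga
Cyp39a1, 4.7 kb downstream, intron of Cyp39a1, chr17:43672020-43672219: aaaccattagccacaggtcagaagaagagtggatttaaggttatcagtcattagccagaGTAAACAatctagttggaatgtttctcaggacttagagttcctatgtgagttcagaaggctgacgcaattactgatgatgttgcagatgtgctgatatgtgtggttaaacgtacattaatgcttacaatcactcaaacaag

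Upstream and downstream are given throughout relative to the start and direction of the named Cyp gene, as the distance of the site's centre. The Cyp2b10 window holds 1 GRE and 5 copies of the GR hexamer, of which 4 follow each other in the same orientation at even spacing. The last of these and the reversed copy behind it overlap the GRE. The Cyp2c70 window holds 1 GRE, 2 hexamers and 2 STAT matches. Cyp27a1 carries 1 GRE, 1 hexamer that overlaps it and 1 C/EBP match, and the Cyp17a1 window 1 GRE alone. In the Cyp39a1 window the 1 match was to the forkhead motif.

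The depth of the lists set what could be seen. The 6 lists held 12458 to 39136 non-overlapping regions, with 36234 in ctrl. 1 and 12458 in ctrl. 2, so that the 2 control libraries differed more from each other than the groups did. Read depth behind the peaks is unknown, since the files hold peaks and not reads, and a site without a peak is one that did not pass the caller. By the style of the library names in the labels, ctrl. 2 belongs with both cal. res. libraries and ctrl. 1 with both CORT libraries. Whether this marks a batch is not stated, and name style and group cannot be told apart between cal. res. and CORT. Within the first series 73 of the 176 Cyp sites held by cal. res. (41.5%, against 40.9% of all sites so held) lacked a peak in ctrl. 2. Within the other series 38 of the 256 Cyp sites held by CORT (14.8%, against 10.6%) lacked one in ctrl. 1. Nothing in the labels says whether the libraries came from separate animals, although the study's methods call them biological replicates, so that the spread between libraries may in part be technical.

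The Cyp windows were dense in GR sites. They held 7.01 sites per 100 kb against 3.52 in the windows of all protein-coding genes, with 7.29 in windows of a single Cyp gene and 6.80 in those of several. A Cyp gene had a median of 6 sites within 50 kb against 3 for all 21938 protein-coding genes, and 92 of the 100 had at least 1 (92.0%, against 73.2%). In counts of genes, here and below, a site counts for every gene whose window holds it, so that neighbouring genes are not separate members. The 8 without any site were Cyp1b1, Cyp2ab1, Cyp2b23, Cyp2j7, Cyp2j12, Cyp2j13, Cyp3a57 and Cyp11a1, the last of which encodes the side-chain cleavage enzyme of steroid-producing glands. Repeated sequence, in which short reads cannot be placed with confidence, made up 8.63% of the 100-base stretches in Cyp windows and 6.70% in all windows, and 31.1% in the window of Cyp3a41b, which held 1 site. Its part in the counts of single clusters was not tested.

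Most Cyp sites lay away from the gene start. Of the 548, 51 were centred within 1 kb of a start, 166 at 1 to 10 kb and 331 at 10 to 50 kb. By the annotation under their centres, 250 were intergenic, 243 intronic, 28 in untranslated and 27 in coding exon sequence. At 46 of the 100 genes a site lay within 1 kb of the start, near the 45.7% of all genes. FOXO1 regions overlapped 18 of the 51 sites within 1 kb of a Cyp start (35.3%), 28 of the 166 at 1 to 10 kb (16.9%) and 57 of the 331 farther out (17.2%). Measured from the nearest protein-coding start of any gene, so that all sites could be set beside them, the shares were 20 of 77 Cyp sites within 1 kb (26.0%, against 13.0% of all sites at that distance), 37 of 232 at 1 to 10 kb (15.9%, against 13.3%) and 46 of 239 at 10 to 50 kb (19.2%, against 14.0%). The difference between distances was not tested.

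**Figure D1:**
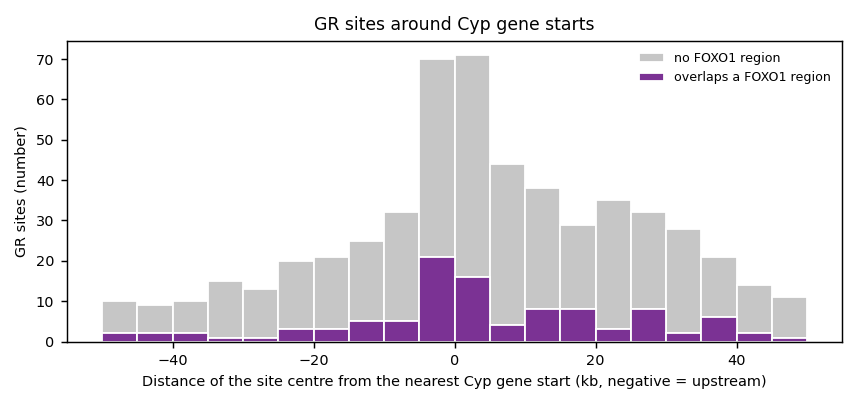
Number of GR sites (y axis) by distance of the site centre from the nearest Cyp gene start in 5 kb bins (x axis, kb, negative upstream), with the sites that overlap a FOXO1 region in purple. The bins next to the gene start are the highest, and 331 of the 548 sites lie beyond 10 kb.

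Each library was then counted. Peaks were present at 346 of the 548 sites in ctrl. 1, 125 in ctrl. 2, 237 in cal. res. 1, 204 in cal. res. 2, 310 in CORT 1 and 430 in CORT 2. The order follows the length of the lists. As a share of each library's regions, those at Cyp genes made up 1.02% in ctrl. 1 and 1.11% in ctrl. 2 (1.06% ± 0.063, SD, n = 2). The 2 cal. res. libraries gave 1.16% and 1.19% (1.18% ± 0.019, SD, n = 2), and the 2 CORT libraries 1.13% and 1.15% (1.14% ± 0.0099, SD, n = 2). All 4 cal. res. and CORT libraries lay above both ctrl. libraries in this share. With 2 libraries per group an exact two-sided permutation test cannot give a p-value below 0.333.

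Ctrl. held 119 Cyp sites (21.7%, against 21.4% of all 51431 sites), cal. res. 176 (32.1%, against 27.9%) and CORT 256 (46.7%, against 43.7%). All 3 groups held 100 of them (18.2%, against 15.7%), cal. res. and CORT together a further 60 (10.9%, against 9.13%), CORT alone 85 (15.5%, against 15.2%), cal. res. alone 13 (2.37%, against 2.39%) and ctrl. alone 5 (0.912%, against 1.40%). Ctrl. and CORT shared 11 (2.01%, against 3.59%), ctrl. and cal. res. 3 (0.547%, against 0.649%), and at 271 sites no group had a peak in both libraries (49.5%, against 51.9%). A single library had the peak at 191 sites (34.9%, against 37.4%). The shares of sites held by CORT alone or cal. res. alone were close to those of the genome. When each list was cut to its 12458 strongest regions, so that all libraries had the same number, cal. res. held 122 Cyp sites, CORT 115 and ctrl. 99, and the order of cal. res. and CORT turned.

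Among the sites held by cal. res., 73 were not held by ctrl. (13.3% of Cyp sites, against 11.5%), and 69 of these 73 had a peak in ctrl. 1 (94.5%, against 91.8% of all such gains) while none had a peak in ctrl. 2 (0, against 0.929%). Only 4 lacked a peak in both ctrl. libraries (0.730%, against 0.842%). The gain under cal. res. therefore rested on the short ctrl. 2 list: without that library it came to 4 sites. For CORT 145 sites were gained (26.5%, against 24.3%), 107 with a peak in ctrl. 1 (73.8%, against 81.0%), 2 with one in ctrl. 2 (1.38%, against 1.39%) and 36 with none in either (6.57% of Cyp sites, against 4.28%), and without ctrl. 2 the gain was 38. Cal. res. lacked 16 sites that ctrl. held (2.92%, against 4.99%) and CORT lacked 8 (1.46%, against 2.05%).

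**Figure D2:**
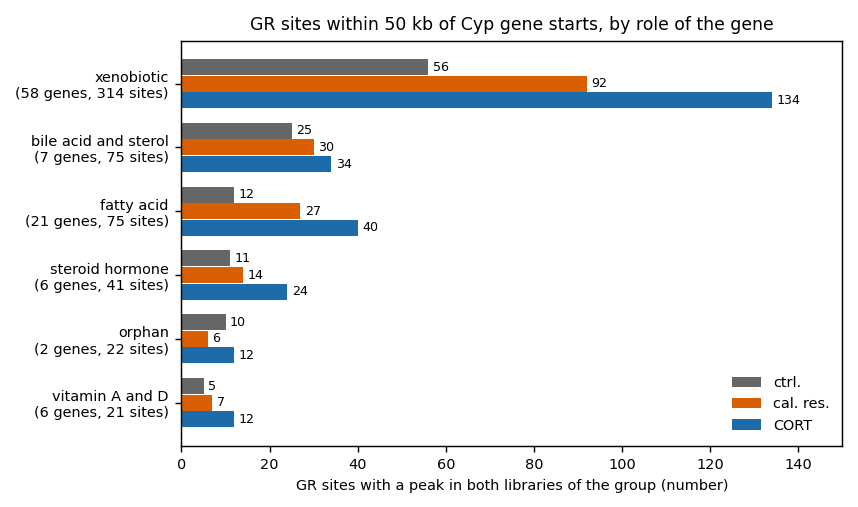
Number of GR sites with a peak in both libraries of a group (x axis) for the Cyp genes of each role (y axis, with the number of genes and of sites), in ctrl. (grey), cal. res. (orange) and CORT (blue). CORT held the most sites in every role, and cal. res. more than ctrl. in every role but the 2 orphan genes, in lists of unequal length.

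The 7 genes of bile acid and sterol metabolism had 75 sites, or 10.7 per gene, the highest number per gene of the roles with more than 2 genes. None of the 7 shared its window with another Cyp gene, whereas many genes of other roles did, which lowers their sites per gene. Ctrl. held 25, cal. res. 30 and CORT 34 of the 75, and 22 were held by all 3 groups. Here and for the roles below, counts held stand beside 21.4% of all sites in ctrl., 27.9% in cal. res. and 43.7% in CORT. For ctrl. to hold a site, the short ctrl. 2 list had to have a peak there. Every one of the 7 genes had a site held by each group. Cyp8b1, whose product sets the share of cholic acid, had 17 sites, and held 7, 9 and 9 in ctrl., cal. res. and CORT. Cyp7a1, the rate-limiting enzyme of bile acid synthesis, had 16 sites with 5, 6 and 8 held, and Cyp27a1, the mitochondrial enzyme of the alternative bile acid pathway, had 21 with 5, 6 and 8. Cyp7b1, which hydroxylates oxysterols in that pathway, had 11 sites, of which ctrl. held 4, cal. res. 2 and CORT 3. Counted by single library, its peaks numbered 6 (ctrl. 1), 4 (ctrl. 2), 5 (cal. res. 1), 2 (cal. res. 2), 8 (CORT 1) and 6 (CORT 2). Neither CORT library had fewer peaks there than a ctrl. library, so that the lower CORT count rests on requiring a peak in both libraries. Cyp39a1, an oxysterol hydroxylase of the liver, had 4 sites (2, 4 and 3 held). Cyp46a1, the cholesterol hydroxylase known from brain, had 2 (1, 2 and 2), and Cyp51, the demethylase of cholesterol synthesis, 4 (1, 1 and 1).

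Peak strength was compared by fold enrichment, the caller's ratio of pileup to local background. Folds depend on each library's quality, so that they were also ranked among the 8097 sites with a peak in all 6 libraries, 100 of them at Cyp genes, and given as a percentile (100 = the strongest). In the order ctrl. 1, ctrl. 2, cal. res. 1, cal. res. 2, CORT 1 and CORT 2, used for all series of 6 values from here on, the site at the Cyp7a1 start had folds of 26.9, 10.3, 17.7, 13.9, 27.4 and 17.7. Its percentiles were 92.6, 92.4, 83.2, 85.1, 90.4 and 69.4, the highest mean of the role. All 4 cal. res. and CORT libraries ranked it below both ctrl. libraries. The differences from ctrl. were -8.36 points for cal. res. and -12.6 for CORT, each with an exact permutation p of 0.333, the smallest possible. It overlapped a FOXO1 region, as did 5 of the 16 Cyp7a1 sites.

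The largest positive difference in rank from ctrl., in both cal. res. and CORT, was within Cyp27a1, in the intron 11.0 kb downstream of its start (chr1:74723833-74725268), the site with the GRE printed above. Its folds were 5.1, 4.3, 16.6, 9.9, 14.4 and 32.5. As percentiles these were 4.3, 31.6, 81.3, 71.8, 61.0 and 91.1, with no overlap between ctrl. and either other group. The mean percentile was 17.9 ± 19.3 (SD, n = 2) in ctrl., 76.5 ± 6.8 in cal. res. and 76.0 ± 21.3 in CORT. Another intronic Cyp27a1 site, 8.0 kb downstream, had folds of 20.7, 5.3, 22.1, 12.99, 21.1 and 23.8 and percentiles of 85.5, 57.1, 89.2, 82.7, 81.6 and 82.2. Its differences from ctrl. were also positive but smaller, 14.7 points for cal. res. and 10.6 for CORT, and both groups overlapped ctrl. there.

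Ranks at 3 further sterol sites differed in other directions. The site 7.9 kb upstream of Cyp7b1 had percentiles of 41.7, 95.9, 34.3, 12.7, 89.1 and 26.2. Both cal. res. libraries lay below both ctrl. libraries there, while CORT 1 and CORT 2 were far apart. At the site 7.7 kb upstream of Cyp8b1 the percentiles were 56.5, 59.7, 49.2, 49.99, 23.8 and 6.4, lowest in both CORT libraries. Within Cyp39a1, at the intronic site with the forkhead motif, they were 72.9, 64.1, 89.4, 90.7, 33.7 and 57.5, so that cal. res. lay above and CORT below both ctrl. libraries. All 3 sites overlapped FOXO1 regions.

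The 21 fatty acid hydroxylase genes of the Cyp4 and Cyp2u families had 75 sites, with 12 held by ctrl., 27 by cal. res. and 40 by CORT. The Cyp4a subfamily, whose members hydroxylate fatty acids at their ends and are known PPARα targets, held 2, 8 and 14 of its 26 sites. Cyp4f, whose members act on leukotrienes and long-chain fatty acids, held 7, 10 and 18 of 28. An intronic site of Cyp4a10, 0.7 kb downstream of its start (chr4:115517977-115519858), had folds of 3.9, 3.4, 14.3, 6.5, 17.7 and 10.9. Its percentiles were 1.2, 8.3, 75.2, 46.0, 73.1 and 38.8, among the weakest shared sites in both ctrl. libraries and above them in the other 4. The site 1.5 kb upstream of Cyp4a14 had folds of 3.6 in ctrl. 1, 13.4 and 9.7 in the cal. res. libraries and 11.2 and 6.9 in those of CORT, with no peak in ctrl. 2. At the Cyp4f13 start, 0.1 kb downstream, percentiles were 28.8, 57.4, 87.4, 82.5, 40.6 and 75.3, highest in cal. res. At Cyp4f15, 0.1 kb upstream, they were 81.8, 64.1, 89.8, 80.9, 87.6 and 82.6, the highest mean of the role. Cyp4f14 had 9 sites (3, 3 and 6 held), Cyp4v3 10 (1, 4 and 3) and Cyp2u1 7 (2, 4 and 4).

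The 6 genes of steroid hormone synthesis act mainly in adrenal and gonad, and 2 of them accounted for most sites in liver. Cyp17a1, the steroid hydroxylase and lyase, had 25 of the 41 sites, with 5, 10 and 13 held. The strongest Cyp site by mean rank lay 27.4 kb downstream of its start, inside an intron of the neighbouring gene Wbp1l (chr19:46644501-46647000), with 1 GRE. Its folds were 68.7, 23.2, 83.6, 50.9, 56.1 and 114.9, and its percentiles 99.4, 99.0, 99.3, 98.9, 98.7 and 99.6. It was near the top of every library and the groups overlapped. Cyp17a1 was also the nearest protein-coding start to this site. Within Cyp17a1, 4.8 kb downstream of its start, an intronic site had folds of 29.1, 6.0, 20.7, 21.4, 30.1 and 33.7. At the start itself folds were 23.6 in ctrl. 1, 15.8 and 10.04 in the cal. res. libraries and 15.4 and 14.8 in those of CORT, with no peak in ctrl. 2.

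Cyp21a1, a hydroxylase of glucocorticoid and mineralocorticoid synthesis, had 10 sites, with 6, 4 and 9 held. Genes lie densely around it, and several of these sites were in Stk19 and Nelfe. The site 19.2 kb upstream had folds of 5.8 and 10.4 in CORT and no peak in any other library. Cyp11b1 and Cyp11b2, which finish corticosterone and aldosterone, shared 3 sites with 0, 0 and 1 held, and Cyp19a1, the aromatase, had 3 with 0, 0 and 1.

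Genes of retinoid and vitamin D handling had few sites, 21 over 6 genes, with 5, 7 and 12 held. Cyp26a1, which degrades retinoic acid, had 3, of which the one 4.9 kb downstream of its start had folds of 29.6, 5.7, 14.0, 13.2, 18.9 and 20.4 and percentiles of 94.3, 62.5, 74.3, 83.3, 76.5 and 75.9. Those of the other groups lay between the 2 ctrl. values. Cyp26b1 had 1 site (0, 0 and 1 held), and Cyp26c1, next to Cyp26a1, had 4 in its window, shared in part with it (1, 2 and 3). Cyp2r1, which starts vitamin D activation in liver, had a single site 0.1 kb upstream of its start. Folds there were 13.3, 5.0, 3.4, 4.1, 10.1 and 12.7, and percentiles 62.4, 49.8, 1.9, 14.0, 37.6 and 48.7. Both cal. res. libraries were the lowest, and the difference from ctrl., -48.1 points with an exact permutation p of 0.333, was the most negative of the Cyp sites under cal. res. Near Cyp27b1, which completes vitamin D activation, in chief in kidney, 12 sites included one in Cdk4, 15.4 kb downstream, with percentiles of 51.1, 78.3, 15.0, 30.5, 50.7 and 70.1, again lowest in cal. res. Cyp24a1, which inactivates vitamin D, had 3 sites (1, 1 and 1 held).

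The 58 genes of drug and xenobiotic metabolism had 314 sites, with 56, 92 and 134 held, and 47 were held by all 3 groups. At 27 genes ctrl. held a site (46.6%, against 48.6% of all genes), at 38 cal. res. (65.5%, against 47.2%) and at 40 CORT (69.0%, against 60.9%). Subfamilies differed in how the counts spread over the groups. Cyp2d, whose members oxidise basic drugs, held 20, 19 and 26 of 51 sites, and Cyp2e1, the enzyme of ethanol and acetone oxidation, 6, 6 and 9 of 14. In contrast Cyp2c held 8, 19 and 35 of 85, Cyp3a 6, 16 and 23 of 75, and Cyp2b 1, 4 and 6 of 15. Ctrl. 1 had peaks at 34 Cyp2c, 45 Cyp3a and 6 Cyp2b sites, and the short ctrl. 2 list at 8, 6 and 1. The cal. res. libraries had 29 and 20 at Cyp2c, 20 and 21 at Cyp3a and 7 and 5 at Cyp2b. Those of CORT had 58 and 59, 25 and 66, and 6 and 15. At Cyp2d ctrl. 1 had 43 and ctrl. 2 had 20. The difference between subfamilies was not tested.

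At the Cyp2e1 locus the site 46.0 kb upstream of the start (chr7:140716992-140718478) had the highest mean rank of the role, with folds of 33.1, 12.0, 50.1, 36.7, 70.7 and 58.2. Its percentiles were 95.9, 94.7, 97.9, 97.6, 99.5 and 97.2. Both cal. res. and both CORT libraries lay above both ctrl. libraries, by 2.45 and 3.04 points in the mean, each with an exact permutation p of 0.333. An olfactory receptor gene, Olfr541, has its start nearer to this site than Cyp2e1. A site over the body of Cyp2e1 itself, centred 6.2 kb downstream, had folds of 18.0, 6.1, 11.3, 8.2, 34.5 and 28.5.

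Cyp2b10, the classic CAR-induced enzyme, had 11 sites, of which ctrl. held 0, cal. res. 1 and CORT 5. The site 13.2 kb upstream (chr7:25884199-25884718), printed above with its row of hexamers, had no peak in ctrl. 1 or ctrl. 2. Folds in the other libraries were 14.3 and 11.4 (cal. res.) and 13.8 and 21.8 (CORT). It was the strongest of only 4 Cyp sites with a peak in all 4 of these libraries and in no ctrl. library (0.730%, against 0.408% of all sites), and was singled out after its values were seen. The other 3 lay 2.8 kb upstream of Cyp4f17, 2.7 kb upstream of Cyp2c37 and 35.1 kb downstream of Cyp8b1, with no fold above 7.1. The Cyp2b10 site overlapped a FOXO1 region of fold 4.6. At the Cyp2b10 start, 0.1 kb upstream, folds were 5.6 in cal. res. 1 and 8.8 and 6.4 in CORT, with no peak in the other 3 libraries. In the window shared by Cyp2b10 and Cyp2s1, 1.56% of 100-base stretches recurred in the genome.

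Among the Cyp genes Cyp2c70 had the most peaks that only the CORT libraries had. A total of 23 sites had a peak in both CORT libraries and in none of the other 4 (4.20%, against 3.04%). Of these, 8 lay at Cyp2c70, which makes the muricholic acids of mouse bile and so stands apart from the other drug-metabolising members, 3 at Cyp4a32, 3 at Cyp21a1 and 1 at each of 9 further genes. Without the Cyp2c70 sites 15 of 518 remained (2.90%), below the share of all sites. No Cyp site met the same rule for cal. res. (0, against 0.119%), and 1 did for ctrl. (0.182%, against 0.161%), 15.2 kb upstream of Cyp2d34 with folds of 3.9 and 3.8. The strongest CORT-only site was 3.5 kb upstream of Cyp2c70 (chr19:40190532-40191147), with folds of 16.6 in CORT 1 and 5.7 in CORT 2, the site with the GRE printed above. The next were the Cyp21a1 site given above and the start of Cyp4a32, with folds of 9.5 and 6.4. In the window from Cyp2c37 to Cyp2c70 repeated stretches made up 8.77%.

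Around Cyp2c70 as a whole, 23 of 30 sites (76.7%) had a peak in 1 or both CORT libraries only, against 29.2% of all Cyp sites and 25.9% of all sites. Most were weak and lay within the gene, and they had folds up to 6.8 in CORT 1 and 5.9 in CORT 2 apart from the sites 3.5 and 4.6 kb upstream. Sites at the same locus were shared as well: 1.1 kb downstream of the start folds were 9.9 in ctrl. 1, 12.4 and 7.1 in the cal. res. libraries and 18.1 and 15.0 in those of CORT. At 38.9 kb upstream, within a neighbouring intron, they were 14.1, 9.0, 7.3, 6.7, 21.0 and 15.3. Both CORT libraries had the highest folds of all 6 at both of these sites. At Cyp2c70 CORT 1 had a peak at 18 of these 23 sites and CORT 2 at 13. At Cyp3a13 19 of 21 sites (90.5%) had peaks only under CORT, but these came almost wholly from 1 library, with a peak at all 19 in CORT 2 and at 1 in CORT 1.

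**Figure D3:**
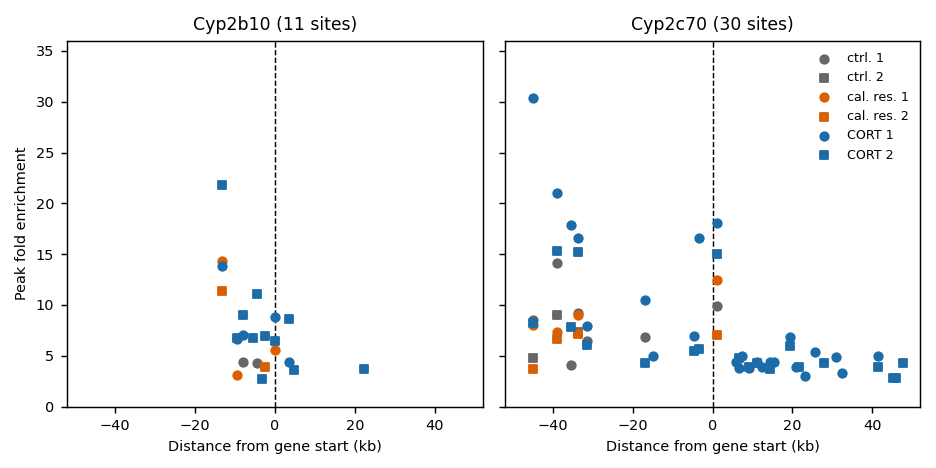
Fold enrichment of each GR peak (y axis) by distance of its site from the gene start (x axis, kb) at Cyp2b10 and Cyp2c70, with 1 point per library that had a peak (circles replicate 1, squares replicate 2). At Cyp2b10 the upstream site near 13.2 kb has only cal. res. and CORT points, and at Cyp2c70 the weak peaks to the right of the start are all from CORT libraries but for the site next to it.

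Cyp3a11, the main PXR-induced enzyme, had 27 sites in its window, with 2, 6 and 10 held. At 1.3 kb upstream folds were 14.6, 4.2, 14.5, 12.5, 10.9 and 18.4, a peak in every library with overlapping groups. The site 20.6 kb upstream had folds of 8.0 in ctrl. 1, 11.5 and 10.8 in the cal. res. libraries and 7.8 and 14.5 in those of CORT. Cyp1a1 and Cyp1a2, which lie head to head and answer to the aryl hydrocarbon receptor, shared 21 sites with 4, 9 and 12 held. Their strongest site, 35.4 kb downstream of Cyp1a1 in an intron of Edc3, had folds of 72.3, 17.8, 64.9, 44.6, 27.6 and 48.4. A weaker Edc3 site, at 37.2 kb, ranked higher in cal. res. than in CORT, with percentiles of 38.9, 65.2, 78.9, 78.9, 21.8 and 43.1, as did a site 18.9 kb downstream of Cyp1a2, with 86.2, 42.3, 68.5, 66.6, 11.1 and 41.2. At both, CORT lay below cal. res. in each library.

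Among the remaining fixed genes Cyp2d22 had 26 sites in its window (8, 7 and 11 held). Its intronic site 0.4 kb from the start had folds of 18.8, 10.7, 31.7, 18.9, 22.1 and 35.2. Cyp2a5, the coumarin hydroxylase, had 6 sites (1, 1 and 1 held), Cyp2c29 7 (0, 1 and 1) and Cyp2j5, an arachidonic acid epoxygenase, 6 (2, 4 and 4). The 3 sites that ranked lowest in cal. res. against CORT all lay nearer to the start of a gene outside the family: 34.1 kb downstream of Cyp2d22 in Smdt1, with percentiles of 27.3, 57.2, 24.6, 21.4, 76.1 and 72.0, 42.5 kb downstream of Cyp2t4 near Snrpa, and 25.5 kb downstream of Cyp2t4 near Rab4b. The Snrpa site was also higher in CORT (62.4 and 85.9) than in ctrl. (24.8 and 29.6). At the third the percentiles were 66.4, 81.8, 34.8, 46.1, 88.5 and 80.1.

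The orphan genes Cyp2w1 and Cyp20a1 had 22 sites and held 10, 6 and 12. Cyp2w1 alone had 19, nearest for the most part to Gpr146 and other neighbours. The site 28.6 kb downstream of its start had percentiles of 83.3, 87.5, 67.4, 31.4, 77.2 and 28.1, below ctrl. in all 4 other libraries. At 37.2 kb downstream they were 54.9, 46.1, 27.3, 1.3, 11.7 and 1.0, the most negative difference from ctrl. under CORT, followed by a site 24.4 kb downstream of Cyp2d9, a steroid hydroxylase more abundant in males, with 72.1, 41.2, 8.5, 28.5, 8.9 and 17.7.

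**Figure D4:**
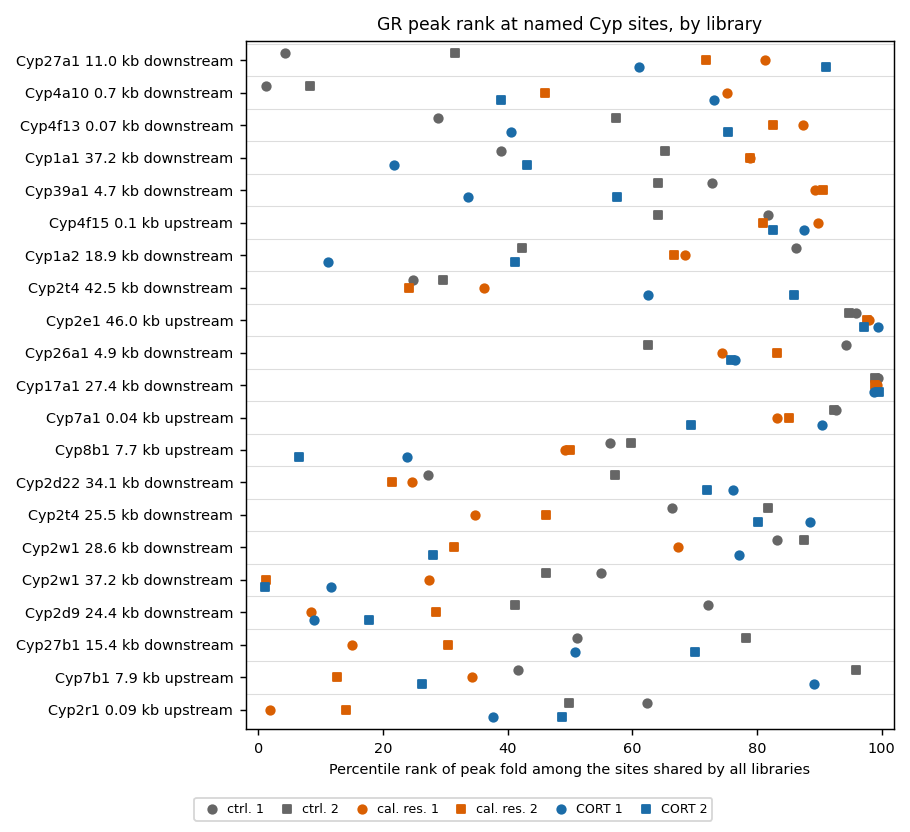
Percentile rank of peak fold among the 8097 sites with a peak in all 6 libraries (x axis) at the named Cyp sites (y axis, distance from the gene start), with 1 point per library (circles replicate 1, squares replicate 2). At Cyp27a1 and Cyp4a10 both ctrl. libraries lie below the other 4, and at Cyp2r1 both cal. res. libraries are the lowest.

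Over the 100 shared Cyp sites, both cal. res. libraries ranked above both ctrl. libraries at 32 (32.0%, against 21.0% of all 8097 shared sites) and below at 19 (19.0%, against 21.0%). For CORT against ctrl. the numbers were 18 above (18.0%, against 19.2%) and 21 below (21.0%, against 19.6%), close to all shared sites. Cal. res. ranked above CORT at 35 (35.0%, against 29.3%) and below at 12 (12.0%, against 25.6%). The median difference at Cyp sites was 4.87 points for cal. res. minus ctrl. (all shared sites 0.34), -0.22 for CORT minus ctrl. (-0.33) and 4.36 for cal. res. minus CORT (1.17). The first 2 comparisons share the ctrl. libraries and all 3 share libraries pairwise. With percentiles taken in each whole list, the direction of cal. res. against CORT turned, 14 sites above (14.0%, against 9.0%) and 34 below (34.0%, against 46.0%), for Cyp sites and all shared sites alike, while the Cyp sites kept the larger share above and the smaller share below. Against ctrl. the whole-list count for cal. res. was 17 above (17.0%, against 11.5%) and 19 below (19.0%, against 20.6%).

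**Figure D5:**
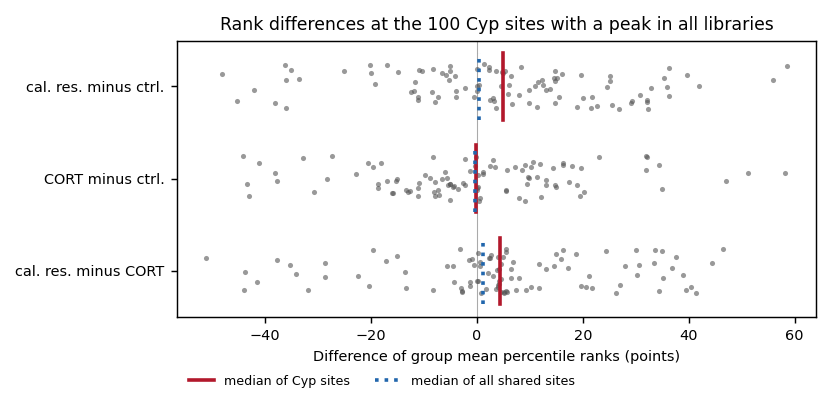
Difference between group mean percentile ranks (x axis, points) at the 100 Cyp sites with a peak in all 6 libraries, 1 point per site with vertical scatter for display only, for the 3 pairs of groups (y axis). The Cyp median (red) lies right of the median of all 8097 shared sites (dotted) for cal. res. minus ctrl. (4.87 against 0.34) and cal. res. minus CORT (4.36 against 1.17).

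FOXO1 regions overlapped 103 of the 548 Cyp sites (18.8%, against 13.9% of all sites), at 58 of the 100 genes (58.0%, against 31.2%). Of the sites held by ctrl. 66 of 119 overlapped one (55.5%, against 40.5%), of those held by cal. res. 87 of 176 (49.4%, against 39.8%) and of those held by CORT 91 of 256 (35.5%, against 27.3%). Sites held by all 3 groups had the most, 62 of 100 (62.0%, against 50.7%). Sites held by CORT alone had few, 7 of 85 (8.24%, against 6.44%), and those held by cal. res. alone had 4 of 13 (30.8%, against 18.1%). Sites gained in cal. res. over ctrl. overlapped FOXO1 at 24 of 73 (32.9%, against 26.0%). FOXO1 was mapped in cal. res. only, so that these shares say nothing of FOXO1 in the other groups.

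Taken from the FOXO1 side, 111 of 8068 regions lay at Cyp genes (1.38%), and 90 of these had a GR peak in both cal. res. libraries (81.1%, against 74.4% of all FOXO1 regions). Bile acid and sterol genes carried 21 FOXO1 sites of their 75 (28.0%), with 7 at Cyp8b1, 5 each at Cyp7a1 and Cyp27a1 and 3 at Cyp7b1. Cyp2e1 had 6 of 14 and Cyp2d 12 of 51. The strongest FOXO1 region, of fold 25.4 and 1.0 kb upstream of Cyp2c50, overlapped a GR site with folds of only 5.5 in ctrl. 1, 5.9 in cal. res. 1 and 4.3 in CORT 2. Just 3 Cyp FOXO1 regions had no GR peak in any library (2.70%, against 6.45%). Cyp24a1 had 2 of them, with folds of 9.9 and 4.8, and Cyp51 had 1, with a fold of 4.7.

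In the 200 bases around the summit, the GR hexamer was found at 132 of the 548 Cyp sites (24.1%, against 18.4% of all sites) and the STAT motif at 59 (10.8%, against 8.16%). For the forkhead motif the share was 6.57% (against 5.19%), for C/EBP 16.4% (against 15.1%) and for HNF4 1.82% (against 1.47%). The full GRE was at 10 sites (1.82%, against 1.89%). These shares are of windows of equal length, though Cyp windows held less G and C than all windows (46.4% against 50.5%), and the part of base composition was not tested. At the 100 sites of all 3 groups the hexamer was in 29 (29.0%, against 20.0%) and STAT in 20 (20.0%, against 9.29%). The 10 GRE sites were 5 held by all groups, at Cyp7a1, Cyp8b1, Cyp17a1, Cyp27a1 and Cyp2a22, 1 held by cal. res. and CORT, that of Cyp2b10, 3 held by CORT only, at Cyp2c70, Cyp4f17 and Cyp4a12a, and 1 held by none, at Cyp2j8. FOXO1 regions overlapped 6 of the 10.

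The clusters with most sites per gene were those of Cyp17a1 (25), Cyp27a1 (21) and Cyp3a13 (21). At Cyp3a13 CORT 2 had a peak at all 21, and each other library at 3 or fewer. These clusters hold 1 gene each. Per 100 kb, the 4 genes from Cyp2d22 to Cyp2d9 had 21.5 sites, above Cyp27a1 and Cyp3a13 with 21 each. The 5 clusters with no site were those of Cyp1b1, Cyp2ab1, Cyp11a1, Cyp3a57 and of Cyp2j7, Cyp2j12 and Cyp2j13 together. Large clusters ranged widely: the 4 genes from Cyp2c37 to Cyp2c70 had 36 sites, the 3 genes around Cyp3a11 had 31, and the 4 genes from Cyp2c67 to Cyp2c69 had 12, of which ctrl. held 0. Of these 12, ctrl. 1 had a peak at 4 and ctrl. 2 at 0. In the window of this last cluster 19.2% of 100-base stretches recurred in the genome.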

How the data were processed

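GR ChIP-seq was deposited as 1 peak list for each of 6 mouse liver libraries and FOXO1 ChIP-seq as 1 list for 2 merged cal. res. libraries. Per the study's methods and processing notes, the authors aligned reads to mm10 with BWA, removed duplicates with Picard, called peaks with MACS2 and filtered blacklisted regions. Whether an input library was used is not given in the sources used here. The deposited lists give each peak's fold enrichment, a ratio of pileup to local background, with its p-value and q-value as −log10. The deposited GR peaks reach a q-value of 0.0998 and the FOXO1 peaks 9.8e-06.

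Rows of a list that repeat an interval with another summit were reduced to the row of highest fold, and regions of the 6 GR lists that share at least 1 base into sites. Gene starts and exons followed GENCODE M21, roles were assigned from textbook knowledge, and sequences came from the RefSeq copy of GRCm38.p6, whose chromosome lengths match mm10. The sequence of 1 further site is not reported here. Motifs were read within 100 bases on either side of the highest library's summit. Single sites were compared by two-sided exact permutation. No test was run over the family, since it was defined as a list: shares are set beside those of all sites. Scripts (Python 3.11.15, pandas 2.3.3, pysam 0.24.0) were tested on simulated data.

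Members and gene lists were chosen with earlier results of these data known. The text names 34 genes fixed by role, the highest-ranked site of each role, up to 3 sites per direction for each pair of groups with the largest difference between groups that do not overlap, the 3 strongest one-group sites, the FOXO1 regions with no GR peak, and the clusters with most and fewest sites. The Cyp2b10, Cyp2c50, Cyp3a13 and other sites outside this rule were chosen after their values were seen, as were the counts without Cyp2c70. The alternatives were a stricter q, an equal number of regions per list, a larger overlap, a peak in either library, a 10 kb window, other rankings and motif windows, leaving out each library, and a replicate block.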

Additional observations from a re-analysis of the deposited data

How the results depend on the processing

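A peak list does not show how close a missing peak came to the threshold. Leaving out each library in turn gave 119 to 347 Cyp sites held by ctrl. (21.9% to 63.6%, against 21.6% to 67.8% of all sites). CORT held 256 to 434 (47.1% to 84.1%, against 43.8% to 78.2%). Gains were 4 to 125 in cal. res. (0.733% to 23.0%, against 0.955% to 21.7%) and 38 to 317 in CORT (6.96% to 61.4%, against 4.63% to 56.8%). Cal. res. only had 0 to 39 (0% to 7.18%, against 0.470% to 7.72%) and CORT only 34 to 249 (6.23% to 48.3%, against 4.15% to 45.2%). The lowest gains and single-group counts came without ctrl. replicate 2, the longest ones without the weaker library of the treated group, as fewer libraries then had to have a peak. FOXO1 overlapped 40.5% to 49.4% of the Cyp sites held by cal. res. (against 30.6% to 39.8% of all sites so held). Ranks not overlapping are made more frequent by 1 library against 2. Cal. res. lay above ctrl. at 31.7% to 56.4% (against 21.0% to 41.3% of all shared sites) and below at 18.4% to 30.7% (against 20.8% to 40.3%). CORT lay above ctrl. at 16.8% to 39.6% (against 19.2% to 37.6%) and below at 19.6% to 40.6% (against 19.3% to 38.6%). Cal. res. lay above CORT at 34.4% to 52.9% (against 28.6% to 43.5%) and below at 11.9% to 25.2% (against 24.5% to 39.9%).

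With a peak in either library, 352 sites counted for ctrl. (64.2%, against 68.6% of all sites), 265 for cal. res. (48.4%, against 46.1%) and 484 for CORT (88.3%, against 83.7%). By this rule 36 were gained in cal. res. (6.57%, against 5.55%) and 160 were in CORT only (29.2%, against 25.9%). FOXO1 overlapped 37.0% of those of cal. res. (against 27.7%). With equal numbers of regions CORT held 115 (47.9%, against 42.2%). The gains were 42 in cal. res. (17.5%, against 16.0%) and 39 in CORT (16.25%, against 15.2%), and CORT only had 16 (6.67%, against 8.27%). FOXO1 then overlapped 40.0% of all Cyp sites (against 29.6%) and 61.5% of those held by cal. res. (against 52.5%). Of the 217 Cyp sites within 10 kb of a start, 40 were gained in cal. res. (18.4%, against 11.5% of all sites at any distance) and 64 in CORT (29.5%, against 24.3%). Cal. res. only had 7 (3.23%, against 2.39%) and CORT only 31 (14.3%, against 15.2%). Sites with a Cyp gene as the nearest start, an alternative chosen after seeing the data, left ctrl. with 77 of 405 (19.0%, against 21.4% of all sites). The stronger 50% of FOXO1 regions overlapped 11.7% of all Cyp sites (against 7.21% of all sites) and 31.8% of those held by cal. res. (against 22.4%). Whole-list percentiles put cal. res. above ctrl. at 17.0%, CORT below ctrl. at 6.00%, and cal. res. above CORT at 14.0% and below at 34.0%. In 100-base windows the motif shares were 13.7% (GR hexamer, against 10.3% of all sites), 4.38% (FOX, against 2.78%) and 6.57% (STAT, against 4.62%). For HNF4 the share was 0.547% (against 0.828%) and for C/EBP 8.76% (against 8.74%). In these windows HNF4 thus lay below all sites and C/EBP close to them. At sites held by a group C/EBP had 23.1% (against 16.9%). Ranking by p-value turned the Cyp17a1 site's differences from ctrl., -0.062 for cal. res. and -0.043 for CORT, to 0.099 and 0.093 points. It also moved the Cyp26a1 site's differences from 0.41 to 3.58 points for cal. res. and from -2.19 to -0.40 for CORT, with no change of sign. Of the other values of these alternatives, counts stayed within a factor of 1.5 and shares within the 95% binomial interval of the main value, and differences at single sites kept their sign. A replicate block, pairing libraries by number, left the Cyp7a1 difference from ctrl. at -8.36 for cal. res. with an exact sign-flip p of 0.5, the smallest that 2 pairs allow. The numbers are not known to pair animals.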
